A study of Rattus norvegicus with 2 samples.

Results

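The galectin genes of stellate ganglia sympathetic neurons are described here in normotensive Wistar rats and prehypertensive SHRs (spontaneously hypertensive rats). The genes are Lgals1, Lgals3, Lgals8, Lgals9 and Lgals3bp, which makes 5 of the 25395 genes listed under a unique name. They were chosen by gene symbol, and Lgals3 was picked from these same libraries for its large rise in SHR, so its difference between the strains is a description and supports nothing further. Cells of dissociated stellate ganglia, paired sympathetic ganglia at the base of the neck whose neurons send axons to the heart and other thoracic targets, were captured in droplets and sequenced at the 3′ ends of their transcripts. There was 1 library from Wistar rats and 1 library from SHRs, from animals of 5 to 6 weeks of age and, per the study's methods, male. The labels name no treatment. Wistar is an outbred stock and the SHR an inbred strain, so the strains differ in more than blood pressure, and the number of animals behind each library was not given in the sources used here. With 1 library per strain there is no replicate spread, so no difference below carries an error, a p-value or a test.

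Galectins are small soluble proteins that bind β-galactoside sugars on glycoproteins through a conserved carbohydrate recognition domain. They are made in the cytosol, leave the cell by a route that bypasses the classical secretory pathway, and crosslink glycoproteins at the cell surface or mark damaged endosomes and lysosomes from inside. Galectin-1 is a dimer of single-domain subunits that is abundant in many peripheral neurons and is tied to axon regrowth, galectin-3 is a chimeric galectin best known from macrophages and injured tissue, and galectin-8 and galectin-9 carry a pair of recognition domains in 1 chain. Lgals3bp is not a galectin but encodes a secreted glycoprotein that galectin-3 binds.

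A promoter sequence in the RefSeq table of the GRCr8 rat assembly was matched by symbol for 3 of the 5 genes, namely Lgals3bp, Lgals8 and Lgals9. Those of Lgals3bp and Lgals9 are shown because both genes are known as interferon responsive and the expression data place them apart, with Lgals3bp lower in SHR and Lgals9 at nearly the same level. The 250 bases before the annotated start are printed 5′ to 3′ on the strand of the gene, at chr10:104127849-104128098 (minus strand) for Lgals3bp and at chr10:64428071-64428320 (minus strand) for Lgals9. Capitals mark each match to 1 of 4 motifs that were searched on both strands, with the sequences already in view.

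Lgals3bp: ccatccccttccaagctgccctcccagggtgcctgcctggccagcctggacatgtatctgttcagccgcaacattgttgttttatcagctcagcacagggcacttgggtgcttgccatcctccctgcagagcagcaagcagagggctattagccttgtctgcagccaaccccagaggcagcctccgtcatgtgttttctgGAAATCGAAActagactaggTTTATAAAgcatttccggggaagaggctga

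Lgals9: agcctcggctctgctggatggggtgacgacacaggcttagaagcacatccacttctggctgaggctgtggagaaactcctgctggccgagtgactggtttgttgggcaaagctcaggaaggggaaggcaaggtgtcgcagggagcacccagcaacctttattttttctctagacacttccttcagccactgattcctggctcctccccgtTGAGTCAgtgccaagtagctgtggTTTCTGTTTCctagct

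In Lgals3bp the first run of capitals, GAAATCGAAA, matched the interferon-stimulated response element (letters GAAANNGAAA) and began 50 bases before the start. The second run holds a pair of overlapping matches to the TATA box (letters TATAAA), 1 on each strand, the nearer of which began 28 bases before the start. In Lgals9 the first run, TGAGTCA, matched the AP-1 element (letters TGANTCA) 40 bases before the start, and the second, TTTCTGTTTC, matched the interferon-stimulated response element on the opposite strand 16 bases before it. Lgals8, whose sequence is not printed, held 2 matches to the GC box (letters GGGCGG) and none to the other 3 motifs. Of 33469 promoter windows of this length, 3.41% held the interferon-stimulated response element, 12.9% the TATA box, 6.34% the AP-1 element and 30.5% the GC box. These matches describe letters and say nothing of whether a factor bound there.

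The authors deposited for each library a natural log value per gene, ln(1 + mean), where the mean is taken over its sympathetic neurons in counts per 10000. Converted back, the levels below are mean counts per 10000, and a log2 difference is log2(1 + level) in SHR minus the same in Wistar, which understates the change of genes at low level. Because transcripts were counted from their 3′ ends, levels were not divided by gene length. The number of neurons and the depth per neuron are not held in these values, so the precision of a level is unknown. The study reports sympathetic neurons with and without the cotransmitter neuropeptide Y, which the mean of a library does not separate. All 5 genes passed a minimum of 0.1 per 10000, averaged over both libraries, as did 7621 genes in all.

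Lgals1 was by far the most abundant galectin transcript in both strains, and it was higher in the SHR. Its level was 12.8 per 10000 in Wistar and 23.4 in SHR, with a ratio of 1.83 and a log2 difference of 0.82. It was the 63rd most abundant of all listed genes in Wistar and the 28th in SHR. Lgals1 made up 75.5% of the summed level of the 5 genes in Wistar and 79.0% in SHR.

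Lgals3 had the largest ratio between the strains of the 5 genes. It also had the largest log2 difference, except with a pseudocount of 10, where Lgals1 stood at 0.55 and Lgals3 at 0.30. Its level was 1.42 per 10000 in Wistar and 4.10 in SHR, with a ratio of 2.88 and a log2 difference of 1.07. In Wistar it lay close to Lgals3bp and Lgals8, whereas in SHR it stood above both, and its place among all genes by level moved from 1179 to 363. Relative to Lgals1 in the same library, a ratio that no rescaling of the library can alter, Lgals3 stood at 0.111 in Wistar and 0.175 in SHR.

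The genes of the tandem-repeat galectins, by contrast, did not share this pattern. Lgals8, whose protein recognizes damaged endosomes and lysosomes, had a level of 1.19 per 10000 in Wistar and 0.993 in SHR (log2 difference -0.14). Lgals9, best known from immune and endothelial cells, had a level of 0.205 per 10000 in Wistar and 0.214 in SHR (log2 difference 0.0098). Lgals8 was thus 16.6% lower in SHR and Lgals9 was 4.0% higher, and neither size can be weighed against replicate error.

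Lgals3bp, whose product binds galectin-3, went the other way from Lgals3. Its level was 1.33 per 10000 in Wistar and 0.910 in SHR, 31.8% lower (log2 difference -0.29). At a ratio of 0.682 it lies just short of a 1.5-fold difference. The level of Lgals3 was thus near that of Lgals3bp in Wistar, at 1.42 against 1.33 per 10000, and well above it in SHR, at 4.10 against 0.910.

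**Figure D1:**
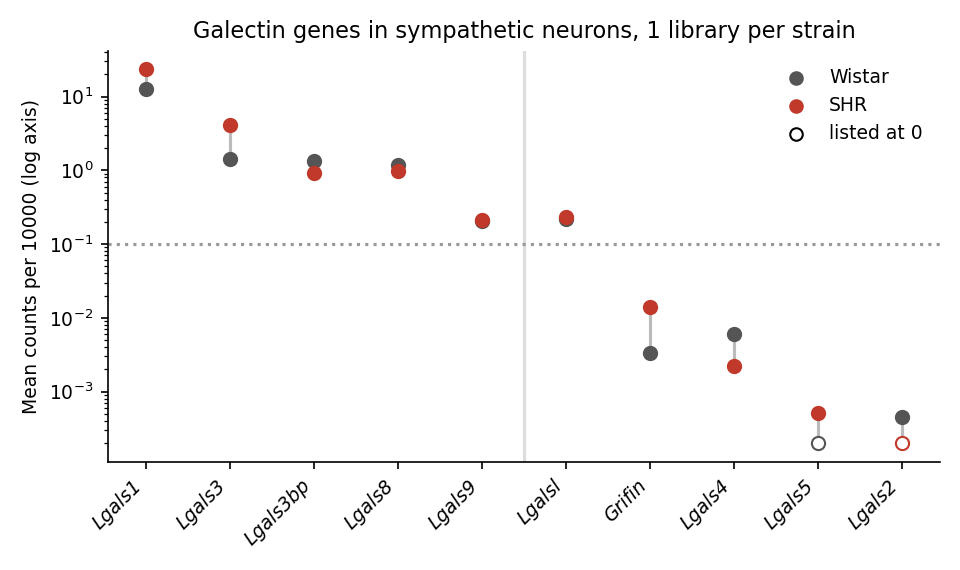
Mean counts per 10000 (log axis) of the 5 galectin genes (left of the vertical line) and of 5 further family genes, with 1 point for the Wistar library (gray) and 1 for the SHR library (red). The dotted line is the minimum of 0.1 per 10000, and open points, drawn at an arbitrary low position, are listed at 0. Lgals1 and Lgals3 are higher in SHR (23.4 against 12.8 and 4.10 against 1.42), and the points of Lgals9 nearly coincide.

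The order of the levels was Lgals1, Lgals3, Lgals3bp, Lgals8 and Lgals9 in Wistar and Lgals1, Lgals3, Lgals8, Lgals3bp and Lgals9 in SHR. Lgals3bp and Lgals8 exchange places between the strains but lie within 0.143 per 10000 of each other in Wistar and 0.0834 in SHR, and no spread is available to tell neighbors in this order apart. The 5 levels summed to 16.9 per 10000 in Wistar and 29.6 in SHR, 74.9% more. Without Lgals1 and Lgals3, the other 3 genes summed to 2.73 in Wistar and 2.12 in SHR.

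A ratio of at least 1.5 in favor of SHR was met by 2 of the 5 genes, Lgals1 and Lgals3, against 5.22% of the 7621 genes past the minimum. A ratio of at least 1.5 in favor of Wistar was met by 0 of the 5, against 26.5% of all genes. Higher by any amount in SHR were 3 of the 5, against 34.4% of all genes. Since the genes were chosen with this comparison in view, nothing is read from these counts against the background. The median log2 difference was 0.0098 over the 5 genes and -0.05 over all genes past the minimum. Of the genes past a 1.5-fold difference in either direction, 16.5% were higher in SHR, and this share became 43.2% when the median ratio of all genes past the minimum was set to 1. Under that setting, too, 2 of the 5 galectin genes were at least 1.5-fold higher and 0 were at least 1.5-fold lower.

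Ranked by log2 difference from the largest positive value, Lgals3 was the 4th and Lgals1 the 10th of the 7621 genes. By the plain ratio, which gives low genes more room, Lgals3 was the 14th and Lgals1 the 81st. Among the 1676 genes that averaged at least 1 per 10000, 4 genes including Lgals3 itself had a ratio as large as that of Lgals3, and 24 genes including Lgals1 had one as large as that of Lgals1. Lgals3bp stood at 6963 and Lgals8 at 5533 by log2 difference, in the part of the ranking where genes are lower in SHR.

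**Figure D2:**
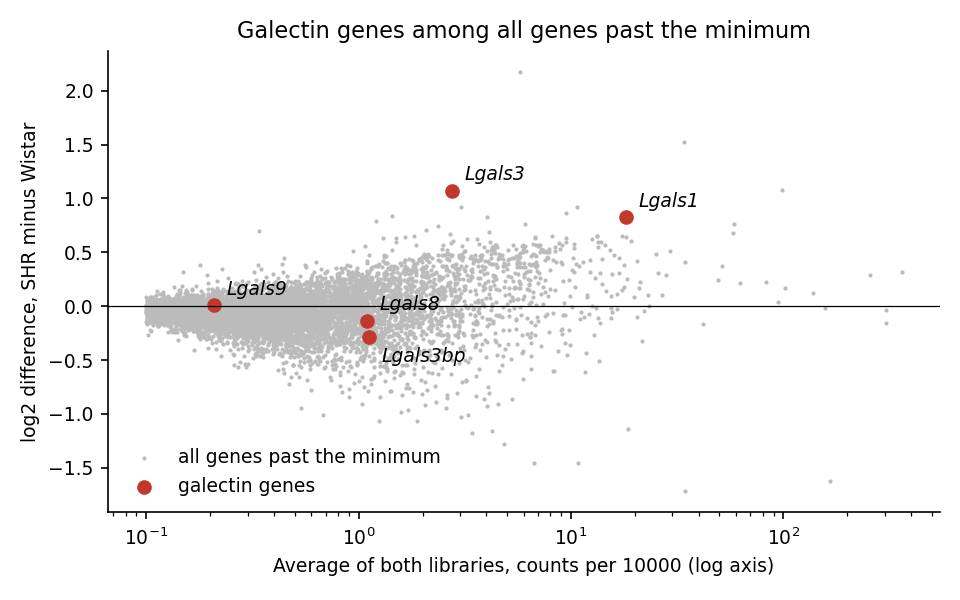
Log2 difference (SHR minus Wistar) against the average level of both libraries (counts per 10000, log axis) for the 7621 genes past the minimum (gray), with the 5 galectin genes in red. Lgals3 at 1.07 and Lgals1 at 0.82 lie above nearly all genes of similar level, while Lgals8, Lgals9 and Lgals3bp lie within the cloud.

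Gene span, the distance from the first to the last base of a gene, moved with the difference between the strains across the transcriptome, and Lgals1 is among the shortest genes. The 7284 genes past the minimum with a span in the GRCr8 table were cut into 10 groups of about equal size, and the median log2 difference was 0.088 in the group of the shortest genes and -0.12 in that of the longest. Lgals1 belongs to the shortest group, in which 73.1% of genes were higher in SHR and 17.3% were at least 1.5-fold higher. Lgals3 and Lgals3bp share the third group, with a median of -0.020, yet their own log2 differences were 1.07 and -0.29. Lgals9 fell in the fifth group and Lgals8 in the sixth, with medians of -0.048 and -0.060. The part of span in the galectin differences was not tested.

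**Figure D3:**
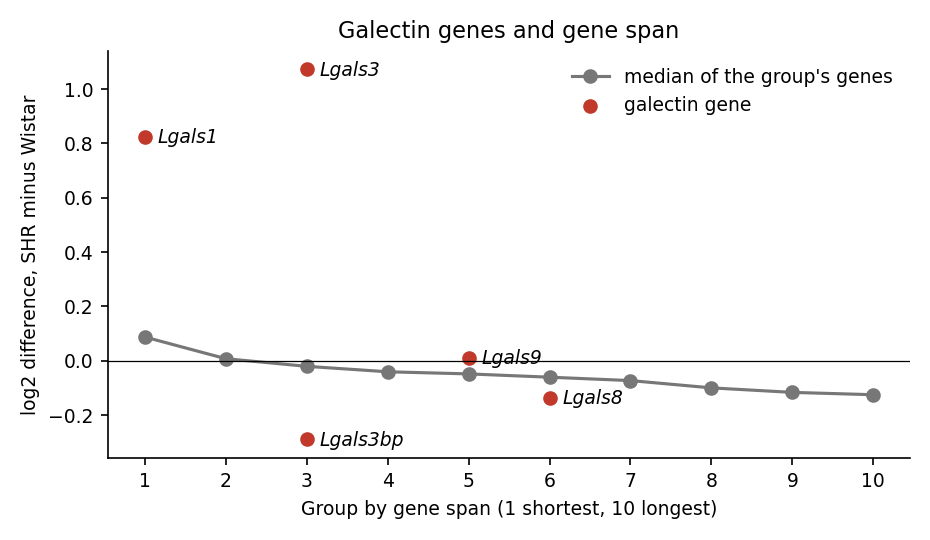
Log2 difference (SHR minus Wistar) of each galectin gene (red) at its group of gene span, from 1 (shortest) to 10 (longest), with the median of all genes of each group (gray line). The medians run from 0.088 to -0.12, and Lgals1 and Lgals3 lie well above the medians of their groups.

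The rest of the family was scarce in these neurons. Of 8 further family genes looked for, 7 were listed, and only Lgalsl, which encodes a galectin-related protein, passed the minimum, at 0.219 per 10000 in Wistar and 0.232 in SHR. Grifin, the lens member of the family, was at 0.00334 and 0.0139 per 10000, and Lgals4, typical of gut epithelium, at 0.00608 and 0.00224. Lgals2 was listed at 0.000456 in Wistar and at 0 in SHR, and Lgals5 at 0 in Wistar and 0.000505 in SHR. Lgals7 and Lgals12, known from skin and fat respectively, were listed at 0 in both libraries. Rat Lgals5 resembles a part of Lgals9, and the RefSeq table lists pseudogenes named after Lgals1, Lgals8 and Lgals9 that have no line in the deposited values. How reads shared by such copies were assigned was not given in the sources used here, so the levels of these genes are uncertain to that extent.

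The genes on either side of Lgals3 stood at low levels, where a difference of log2(1 + level) is small even when the ratio is not. Their ratios of SHR to Wistar ran from 0.624 for Dlgap5 to 0.887 for Mapk1ip1l. The 3 nearest listed genes before it in the GRCr8 gene order were Mapk1ip1l, at 0.309 per 10000 in Wistar and 0.274 in SHR, Socs4, at 0.0379 and 0.0251, and Wdhd1, at 0.0674 and 0.0502. Those after it were Dlgap5, at 0.0408 and 0.0255, Fbxo34, at 0.311 and 0.208, and Atg14, at 0.106 and 0.0846. All 6 were listed at a lower level in SHR, as were 65.6% of the genes past the minimum, which Mapk1ip1l and Fbxo34 alone passed here. Setting the median difference of all genes to 0 adds 0.052 to the log2 difference of every gene. The difference was then above 0 for 5 of the 6, among them Mapk1ip1l at 0.013, and below 0 for Fbxo34 at -0.065. At levels this far under the pseudocount of 1 these signs follow from the added constant, so nothing is read from them.

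By the distance between pairs of natural log levels over the 2 libraries, the genes most like Lgals3 were Rgs10 (distance 0.146), Lix1 (0.193), Lynx1 (0.200) and Mt3 (0.240). Rgs10, a regulator of G protein signaling, was at 1.79 per 10000 in Wistar and 4.28 in SHR. Lix1 was at 1.53 and 3.22 per 10000, Lynx1, which encodes a modulator of nicotinic receptors, at 1.85 and 3.54, and Mt3, which encodes a metallothionein, at 1.99 and 3.56. Each had a smaller log2 difference than Lgals3, from 0.61 for Mt3 to 0.92 for Rgs10. With 2 libraries this likeness rests on 2 values per gene.

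Galectins act by binding glycoproteins, and a list of 18 known or proposed partners was examined next. Of these, 17 were listed and 14 passed the minimum, of which 3 were higher and 11 lower in SHR. Of all genes past the minimum, 65.6% were lower. The median log2 difference of the 14 was -0.16 against -0.05 over all genes. Since log2(1 + level) understates change at low level, such medians also reflect how high the genes stood. The most abundant were L1cam, an axonal adhesion molecule, at 3.87 per 10000 in Wistar and 3.33 in SHR, Cd47, at 3.46 and 2.76, and the lysosomal membrane gene Lamp1, at 3.15 and 2.89. Cd44, the hyaluronan receptor, had the largest positive difference of the list, 0.749 against 1.07 per 10000 (log2 difference 0.24). Ncam1 had the largest negative difference, 1.41 against 0.692 per 10000 (log2 difference -0.51). At least 1.5-fold lower in SHR were 5 of the 14, against 26.5% of all genes. Named here after their values were seen, they were Ncam1, Lamp2, Nrp1, Plxna4 and Trim16, with ratios of 0.491, 0.554, 0.385, 0.471 and 0.411. Nrp1 and Plxna4 encode semaphorin receptors, Lamp2 a lysosomal membrane protein, and Trim16 a protein that works with galectin-3 at damaged membranes. None of the 14 was at least 1.5-fold higher in SHR, against 5.22% of all genes past the minimum.

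Genes for building or capping the N-glycan branches read by galectins, nearly all of them encoding enzymes, formed the next list. All 14 were listed, and 9 passed the minimum, of which 2 were higher and 7 lower in SHR, against 65.6% of all genes lower. The median of their log2 differences was -0.047. The α-mannosidase gene Man2a1 was the most abundant and had the largest negative difference, 2.32 against 1.69 per 10000 (log2 difference -0.30). B3gnt2, whose enzyme starts the poly-N-acetyllactosamine chains that galectin-3 prefers, had the largest positive difference, 1.15 against 1.57 per 10000 (log2 difference 0.26). Mgat4b, a branching enzyme gene, was at 0.986 and 0.922 per 10000. Mgat5, which makes the branch most often linked to galectin binding, was named after its values were seen and stood under the minimum, at 0.0338 and 0.0235 per 10000. Mgat4a and Slc35a2 were at least 1.5-fold lower in SHR, with ratios of 0.601 and 0.658, which is 2 of the 9 against 26.5% of all genes past the minimum. None of the 9 was at least 1.5-fold higher, against 5.22% of all genes.

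**Figure D4:**
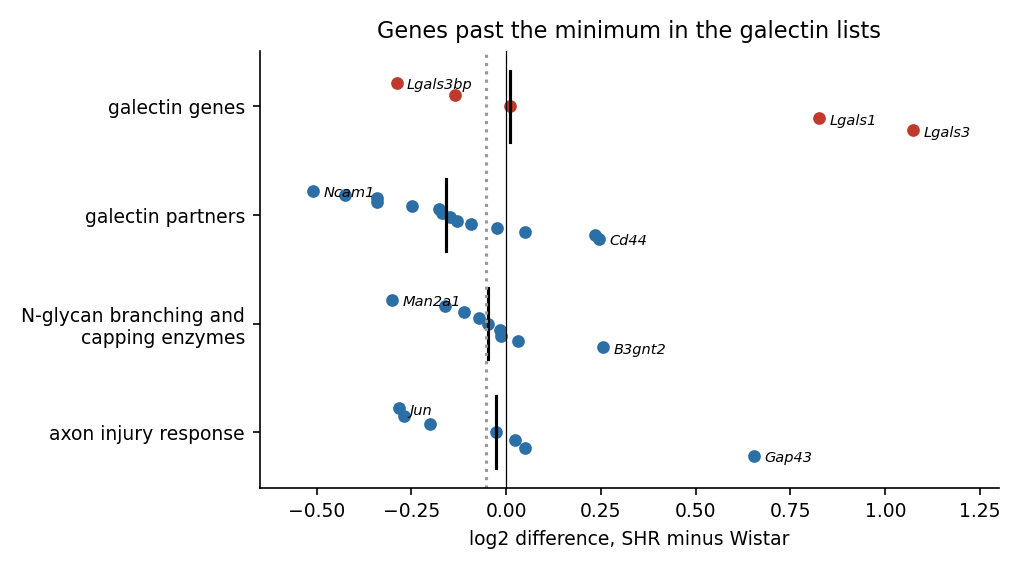
Log2 difference (SHR minus Wistar) of each gene past the minimum in the galectin genes, their partners, the N-glycan list and the axon injury list. Short black bars are list medians (0.0098, -0.16, -0.047 and -0.026), and the dotted line is the median of all genes past the minimum, -0.05. Lgals3, Lgals1 and Gap43 lie far to the right of the other genes.

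Galectin-1 and galectin-3 are both known from nerve injury, so genes that neurons induce after axon damage were set beside them. Of 12 genes in this list, 7 passed the minimum, of which 3 were higher and 4 lower in SHR, against 65.6% of all genes lower. The median of their log2 differences was -0.026. Gap43, the growth cone protein gene, was the most abundant and had the largest positive difference, 13.3 against 21.5 per 10000 (log2 difference 0.65, ratio 1.62). It was 1 of the 7 genes and the single one at least 1.5-fold higher, against 5.22% of all genes past the minimum. Stmn4 was at 4.22 and 4.31 per 10000, and Jun had the largest negative difference, 3.33 against 2.56 (log2 difference -0.28). Atf3, the injury transcription factor gene and named after its values were seen, was at 1.68 per 10000 in Wistar and 1.78 in SHR. Of the 7, Adcyap1 alone was at least 1.5-fold lower, at 0.445 and 0.200 per 10000, against 26.5% of all genes. Over all 12 genes, with those under the minimum, 4 were higher and 8 lower in SHR. Among those under it, Gal (0.151 and 0.0224) and Vip (0.150 and 0.0134) were lower, and Sprr1a (0.000731 and 0.0150) was higher. These genes were named after their values were seen.

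Markers of sympathetic neurons were high in both libraries, and their summed level, 115.1 per 10000 in Wistar and 116.1 in SHR, differed by 0.921%. Single markers moved both ways, with 3 higher and 7 lower in SHR, against 65.6% of all genes past the minimum lower. At least 1.5-fold lower were 3, against 26.5% of all genes, and 1 was at least 1.5-fold higher, against 5.22%. Named after their values were seen, Dbh (10.2 and 6.36) and Maoa (1.78 and 1.11) were lower and Hand2 (0.250 and 0.452) was higher. Of these 10 markers, Prph was at 58.0 and 67.6 per 10000, Slc6a2 at 15.9 and 15.2 and Th at 10.2 and 10.1, with the largest positive difference in Phox2a (6.03 and 7.82) and the largest negative one in Ddc (7.05 and 3.44). The summed markers of each other cell type examined were lower in SHR. Of the 10 markers of satellite glia and Schwann cells, 6 passed the minimum. All 6 were at least 1.5-fold lower in SHR, against 26.5% of all genes past the minimum. The 10 markers summed to 9.45 per 10000 in Wistar and 3.48 in SHR, all 10 being lower in SHR. Apoe accounted for most of this, at 6.24 and 2.23 per 10000, a Wistar level above that of the neuron marker Phox2a, and stood ahead of Mbp at 1.05 and 0.632. The 6 fibroblast markers summed to 1.84 and 0.353 per 10000, all 6 being lower. The 3 past the minimum were Col3a1 (0.814 and 0.152), Col1a1 (0.542 and 0.0644) and Dcn (0.387 and 0.0964). These 3 were at least 1.5-fold lower, against the same 26.5% of all genes.

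Macrophages are a known source of Lgals3. Of the 12 immune markers, only 1 passed the minimum, and 65.6% of all genes past it were lower in SHR. The 12 markers summed to 1.57 per 10000 in Wistar and 0.508 in SHR, and 11 of the 12 were lower in SHR. Cd74 was the highest of them, at 0.843 and 0.329 per 10000, followed by Laptm5 at 0.122 and 0.0281 and C1qa at 0.138 and 0.00727. The exception, named after its values were seen, was Ptprc at 0.00388 and 0.00473 per 10000. The part of immune cells in the level of Lgals3 or in its difference between the strains was not tested. Lgals3bp was lower in SHR together with the glial, immune and fibroblast markers, and their part in its difference was not tested. Endothelial markers summed to 0.117 and 0.0520 per 10000 over 6 listed genes, with Egfl7, Cldn5 and Cdh5 the highest by the average of both libraries, and those of vascular smooth muscle to 0.125 and 0.0704 over 6 genes, with Myh11, Acta2 and Tagln the highest by that average. Emcn (0.00843 and 0.0163 per 10000, named after its values were seen), Acta2 and Tagln were higher in SHR than in Wistar. No endothelial or vascular smooth muscle marker passed the minimum.

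**Figure D5:**
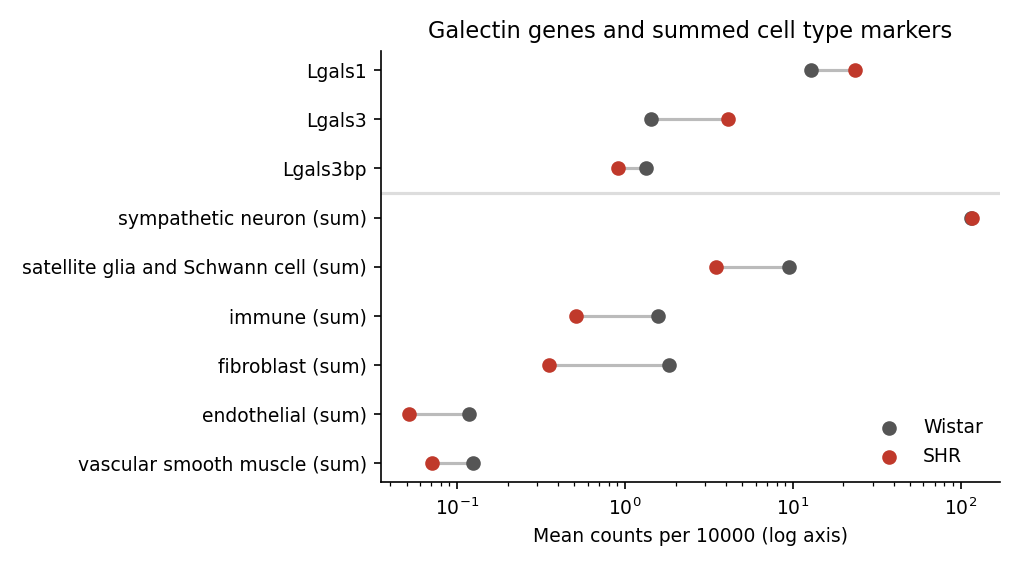
Levels of Lgals1, Lgals3 and Lgals3bp and summed levels of cell type markers in the Wistar (gray) and SHR (red) libraries, in mean counts per 10000 on a log axis. The summed neuron markers lie close together at 115.1 and 116.1, although 7 of the 10 were lower in SHR. Each summed list of another cell type is lower in SHR, and Lgals1 and Lgals3 are higher.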

How the data were processed

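Stellate ganglia of Wistar rats and SHRs were dissociated with collagenase IV and trypsin, and single cells were captured with 10x Genomics 3′ v3 chemistry. The submitters' processing notes name Cell Ranger 3.0.2, Seurat 3 and the build Rnor_6.0. The authors averaged the sympathetic neurons of each library and deposited 1 natural log value per gene, ln(1 + mean), with the mean in counts per 10000. Cell filters, doublet treatment and neuron numbers were not given in the sources used here. A deposited table of the authors' own comparison of the strains holds fold changes, p-values and shares of cells, and was not used.

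Values were converted back and compared with Python 3.11.15, NumPy 2.4.6 and pandas 2.3.3. Levels summed to 10000 in each library. Of 25399 lines, 4 whose names occur more than once were dropped. The comparison had no test, since each strain has 1 library, and gene counts use a 1.5-fold ratio among genes averaging at least 0.1 per 10000. The ratios were tested on simulated data, and the conversion was not. Gene symbols were matched to RefSeq tables of GRCr8, a build other than that of the data, by symbol or synonym.

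Members and lists were chosen with earlier results of these data known. The genes named are the members, other listed family genes, the 3 most abundant genes and the largest positive and negative difference past the minimum of each list, the 3 listed genes on each side of Lgals3, and the 4 genes nearest Lgals3 in level. Genes named outside this rule are said to be so, and 1 gene under it is not reported here. Alternatives tried were other pseudocounts (0.1, 0.01 and 10), totals, centring and minimums.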

Additional observations from a re-analysis of the deposited data

How the results depend on the processing

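No paired analysis was possible because there is 1 library per strain, and for that reason no library could be left out. The log2 difference of Lgals3, 1.07, became 1.46, 1.52 and 0.30 with pseudocounts of 0.1, 0.01 and 10, and the median of the 5 galectin genes, 0.0098, became 0.038, 0.054 and 0.0012, sizes that follow from the pseudocount. With a total that leaves out mitochondrial and ribosomal protein genes they became 1.17 and 0.020, and with the median difference of all genes set to 0, which adds 0.052 by construction, 1.13 and 0.062. Under each of these settings and without the markers of other cell types, 3 galectin genes were higher and 2 lower in SHR.

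The counts of genes past a ratio of 1.5, 398 higher and 2021 lower, became 1005 and 1320 with the median ratio set to 1, 1650 and 5108 with no minimum, and 172 and 195 with a minimum of 1 per 10000. Without mitochondrial and ribosomal protein genes the counts were 545 and 2039. In that setting the log2 difference changed sign for Th (0.029). With the median difference at 0 it changed sign for Th (0.043), Mapk1ip1l (0.013), Mgat4b (0.0055) and Mx2 (0.027), and for 11 genes under the minimum. Depth is unknown, so differences of genes at low level are the least certain.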

Other observations

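Lists of further genes tied to galectins were written after the data were examined and are given as values. Galectin-3 has been named as a receptor of advanced glycation end products together with the products of Ddost and Prkcsh. Ddost was lower in SHR, at 0.937 and 0.624 per 10000, as was Prkcsh, at 1.18 and 0.705, with ratios of 0.666 and 0.596. Ager, which encodes the classical receptor, was at 0.131 and 0.0349 per 10000, and Msr1, a scavenger receptor gene of macrophages, was listed at 0 in both libraries.

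Since Lgals3bp is known to respond to interferon, 12 interferon-stimulated genes were looked up, of which 11 were listed and 6 passed the minimum. Of these 6, 1 was higher and 5 were lower in SHR, as were 65.6% of all genes past the minimum. Their median log2 difference was -0.13 against -0.05 over all genes past the minimum. Ifi27 was the most abundant, at 9.96 per 10000 in Wistar and 8.17 in SHR. Isg15 was higher, at 0.180 and 0.267, and Ifit2 (0.169 and 0.0596) and Ifitm3 (0.197 and 0.0802) were at least 1.5-fold lower. That is 2 of the 6, against 26.5% of all genes past the minimum, and nothing is read from these counts. Stat2 was at 0.598 and 0.471 per 10000 and Mx2 at 0.170 and 0.150. The other 5 listed genes, Ifit3, Irf7, Bst2, Mx1 and Psmb8, had levels of at most 0.0984 per 10000 in either library.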
